A study of Mus musculus with 9 samples.

Results

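The proteasome genes of mouse Neuro-2a (N2a) cells were described across 9 RNA-seq libraries in which the small GTPase gene Arf1 was or was not targeted by short hairpin RNA. They were taken from the deposited table by gene symbol, Psma to Psmg followed by a number, and Psmb8, Psmb9 and Psmb10, the inducible catalytic subunits, were left out of them. Of 21899 genes in the table, 48 matched, and 46 of these encode proteasome subunits, regulators or assembly factors: 8 alpha and 8 beta subunits of the core, 6 ATPases and 11 other subunits of the regulatory particle, 6 activators or inhibitors, and 7 assembly chaperones. The remaining pair, Psmc3ip and Psme3ip1, share the name of a proteasome gene because their proteins bind its product, and they were kept apart.

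As background, the 26S proteasome is the protease that degrades most short-lived, damaged and ubiquitin-tagged proteins of the cytosol and nucleus. Its 20S core is a barrel of stacked alpha and beta rings with the proteolytic sites facing inward, and its 19S regulatory particle binds the ubiquitin chain, removes it, unfolds the substrate with a ring of ATPases and feeds it through the gate of the alpha ring. Cells can cap the core with other activators instead, dedicated chaperones assemble the rings, and in neurons proteasome activity is tied to the turnover of synaptic proteins.

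N2a is a mouse neuroblastoma line, and the labels give brain as its tissue, neuroblast as its cell type and no treatment for all 9 libraries. The control cells carried a hairpin against luciferase (shlucif, 3 libraries), and Arf1-deficient cells carried either of 2 hairpins against Arf1 (shArf1-1 and shArf1-2, 3 libraries each), all in otherwise unmodified N2a cells as far as the labels say. Total counts ran from 13381570 to 13786986 in shlucif, from 11182479 to 15594615 in shArf1-1 and from 13463280 to 14659400 in shArf1-2. Nothing in the sources used here says whether the 3 libraries of a group came from separate cultures, so p-values measure the spread between these libraries, which may be technical.

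Arf1 itself stood at 712, 672 and 707 CPM (counts scaled to library size, here with factors from the trimmed mean of M values, TMM) in the shlucif libraries, at 271, 265 and 262 in shArf1-1, and at 341, 318 and 352 in shArf1-2. All 6 Arf1-deficient libraries lay below all 3 controls, and the 2 hairpins did not overlap each other. Of 15 genes that mark neuronal or sympathetic neuroblastoma cells, 13 had enough counts to be tested, with Prph, a neuronal intermediate filament gene, the most abundant at 15306 to 24576 counts per library, while the neurofilament genes Nefl and Nefm were too low to be tested. In Arf1-deficient cells 11 of the 13 rose, beside 31.6% of all genes tested, among them Dbh (log2 fold change 1.85), and Prph fell by 0.38 on the log2 scale.

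Markers of macrophages or microglia separated the groups as well, and their part in any result below was not tested. The 16 genes of that list summed to 4910, 4325 and 4032 counts in the shlucif libraries, to 13, 12 and 23 in shArf1-1 and to 18, 19 and 27 in shArf1-2. Their most abundant gene was Lyz2, the lysozyme of myeloid cells, with 1237, 1104 and 1078 counts in shlucif and 3 to 10 in each Arf1-deficient library, and 13 of the 16 were tested and all 13 fell, beside 32.9% of all genes tested. The defining genes Ctss, Itgam, C1qb and Spi1 were at 0 counts in all 6 Arf1-deficient libraries. These are bulk libraries, in which fewer cells of a type and less RNA per cell cannot be told apart.

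In Arf1-deficient cells, 5 of 6 ATPase genes of the 19S particle and the scaffold gene Psmd1 rose (31.6% of all genes tested rose and 32.9% fell), genes of the 20S core moved little, 3 up and 3 down (5 up with library size scaling, where the 3 falls were lost), and the lid gene Psmd8 fell the furthest of all the proteasome genes. With library size scaling, 4555 of all 12448 genes tested rose and 3626 fell. Psmf1, Psme3 and Psmg3, which encode an inhibitor, an activator and an assembly chaperone, also rose. Of the 46 genes, 44 had enough counts to be tested; Psma8 and Psmb11, whose products replace core subunits in testis and thymus, had 0 counts in all 9 libraries.

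With the 6 Arf1-deficient libraries set against the 3 controls, 24 of 44 proteasome genes passed an adjusted p of 0.05 (54.5%), beside 64.5% of the 12448 genes tested. Those that rose numbered 18 (40.9%), beside 31.6% of all genes, and those that fell numbered 6 (13.6%), beside 32.9%. The median log2 fold change over the 44 was 0.07, and over all genes tested it was 0.0033; with library size scaling the values were 0.13 and 0.0661. All 6 Arf1-deficient libraries lay above all 3 controls for 16 proteasome genes, against 27.9% of all genes, and below them for 3, against 30.1%. Of the 44 genes, 7 rose by at least 0.5 on the log2 scale, a share near the 15.4% of all genes, and 1 fell by as much, beside 19.3%. Of the 24 genes, 13 passed in each of 20 alternative analyses, 11 were lost in at least 1, and none of the 24 changed direction. The falls were the less stable count: 2 remained past the threshold with library size scaling and with limma on the deposited FPKM, and 3 without shlucif replicate 3, whereas the GC content correction gave 9. Falls over all genes tested numbered 4094 in the main fit, 3626 with library size scaling and 3632 with limma on log2(FPKM + 1). They numbered 3747 without shlucif replicate 3 and 4250 with the GC content correction.

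The hairpins were then compared with the same 3 shlucif libraries one by one, so that these comparisons share their controls. For shArf1-1, 24 of 44 proteasome genes passed, beside 67.5% of all genes, with 18 higher, beside 33.1%, and 6 lower, beside 34.4%. For shArf1-2 the counts were again 24 of 44, beside 63.4%, with 18 higher, beside 30.9%, and 6 lower, beside 32.6%. By role the counts were not the same: in the 20S core 3 genes rose and 2 fell with shArf1-1 and 4 rose and 3 fell with shArf1-2, whereas in the 19S particle 10 rose with shArf1-1 and 8 with shArf1-2, and 2 fell with each. Tested against each other, the hairpins differed in 0 of 14 core genes and 1 of 17 genes of the 19S particle, beside 14.4% of all genes. A correction for GC content raised the falls to 10 for each hairpin, and library size scaling took them to 3 for shArf1-2. Of 12448 genes tested, falls went with the GC content correction from 4282 to 4462 for shArf1-1 and from 4054 to 4288 for shArf1-2. Library size scaling gave 3501 for shArf1-2.

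**Figure D1:**
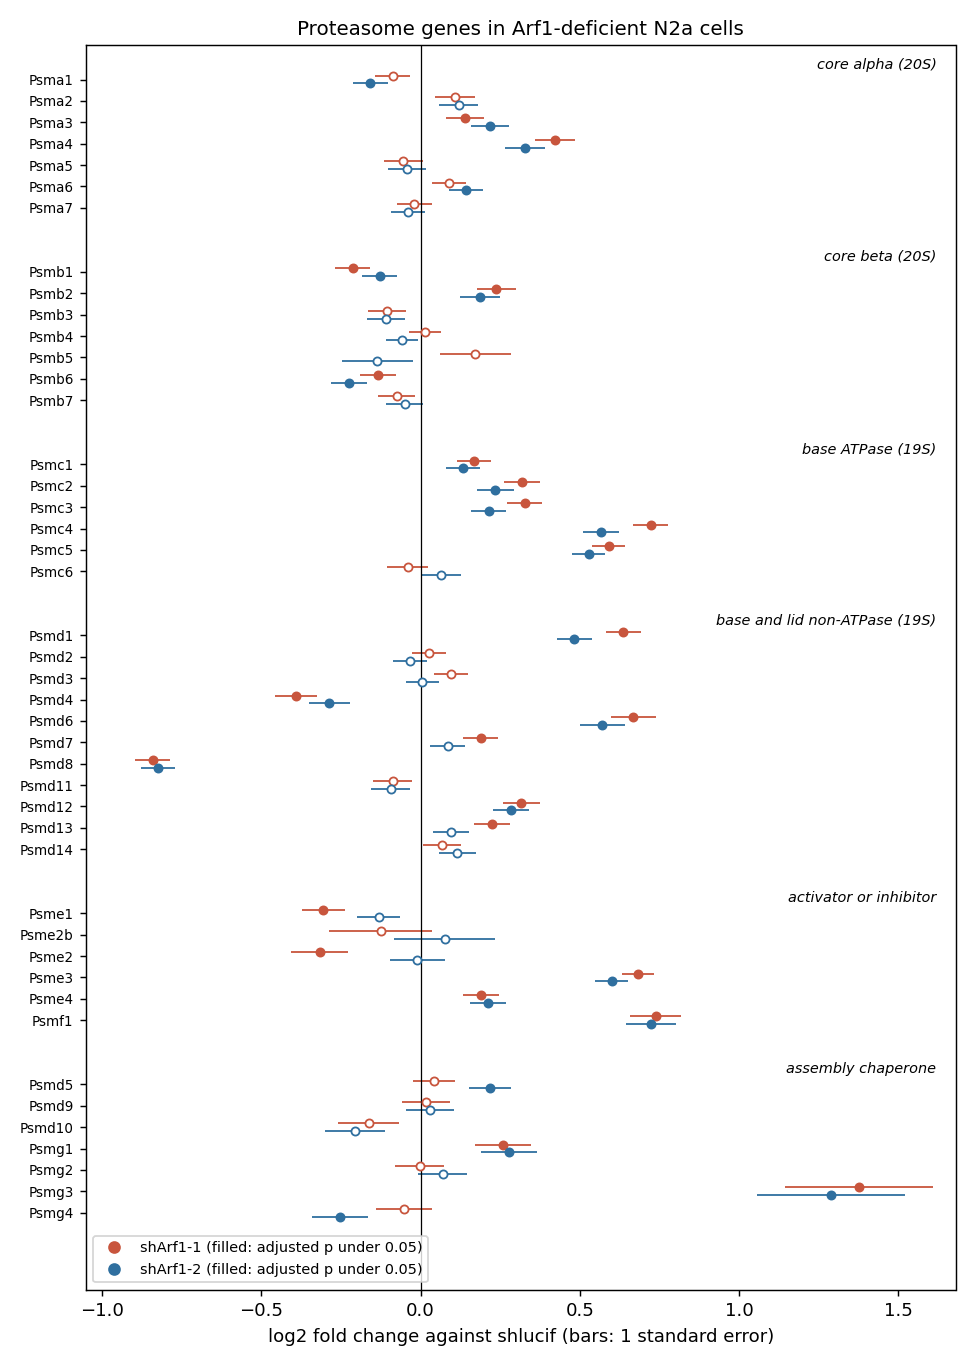
Log2 fold change (x axis) of each tested proteasome gene (y axis, grouped by role) in shArf1-1 (red) and shArf1-2 (blue) libraries against the shared shlucif libraries. Points are edgeR estimates, bars are 1 standard error, filled points passed an adjusted p of 0.05; Psmd8 lies farthest left and Psmg3 farthest right for both hairpins, and most other genes lie within 0.5 of 0.

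Within control cells the subunits of 1 particle did not have equal RNA levels. Levels were taken in FPKM, fragments per kilobase of listed gene length scaled to library size. The 14 detected core genes ran in shlucif from 28.6 ± 2.24 (SD, n = 3) for Psmb5 to 180.1 ± 5.41 for Psma6, with a median of 64.2. This order depends on the listed length. In shlucif Psmb1 (4595 bases) had a mean of 271.3 CPM and 57.3 FPKM, and Psma6 (1234 bases) had 229.0 CPM and 180.1 FPKM. Whether the listed lengths match the transcripts present was not tested. The 17 genes of the 19S particle ran on the same FPKM scale from 15.1 ± 0.144 for Psmd11 to 117 ± 5.39 for Psmd4, with a median of 48.2. Among the 44 detected genes the lowest FPKM level belonged to the assembly chaperone gene Psmg3, at 0.719 ± 0.201. Replicates were close: in TMM-scaled CPM the median coefficient of variation of a proteasome gene in shlucif was 4.54%, and the highest was 28.5%, for Psmg3.

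Summed over each particle, the 19S genes stood higher against the 20S genes in Arf1-deficient cells. The ratio of summed 19S to summed 20S FPKM, in which library scaling cancels, was 1.0, 1.004 and 0.982 in the shlucif libraries, 1.09, 1.11 and 1.08 in shArf1-1, and 1.07, 1.07 and 1.07 in shArf1-2. Every Arf1-deficient library lay above every control library in this ratio. The genes did not share in it alike. The largest gains in mean FPKM, from shlucif to shArf1-1 and shArf1-2, were in Psmc5 (113.2 to 177.0 and 171.5) and Psmc4 (53.9 to 92.4 and 83.9). The largest losses were in Psmd8 (96.2 to 55.7 and 57.1) and Psmd4 (117.4 to 93.1 and 101.2). Whether the ratio differs without single genes was not tested. Adrm1 and Sem1, 19S subunits with other names, are not in the sum. The summed 20S level itself depended on the scale: in FPKM it was 1026 ± 24.4 (SD, n = 3) in shlucif, 1084 ± 14.7 in shArf1-1 and 1081 ± 24.2 in shArf1-2, with all 6 Arf1-deficient libraries (1054 to 1100.0) above all 3 controls (998 to 1044). In TMM-scaled CPM the 20S genes came to 2307 ± 86.8 (SD, n = 3) in shlucif, 2304 ± 42.1 in shArf1-1 and 2286 ± 67.4 in shArf1-2, which differ by less than the spread between replicates. The 19S genes summed to 3143 ± 92.7 CPM in shlucif, 3428 ± 27.6 in shArf1-1 and 3301 ± 112 in shArf1-2, and on that scale shArf1-1 lay above all controls whereas shArf1-2 overlapped them. In FPKM the 19S sums were 1021 ± 17.4 in shlucif, 1181 ± 3.46 in shArf1-1 and 1153 ± 25.7 in shArf1-2, and both hairpins lay above all controls.

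In the 20S core, 3 of 14 tested genes rose and 3 fell, shares below the 31.6% and 32.9% of all genes, with a median log2 fold change of −0.03 that turned to 0.04 with library size scaling and with limma on FPKM, and to 0.01 with the gene length correction. Over all genes the median went from 0.0033 to 0.0661 with library size scaling and to 0.0477 with limma on log2(FPKM + 1). The core median lay below it in these settings, and above it (−0.0077) with the gene length correction. The 3 falls were lost with library size scaling, with limma on FPKM and without shlucif replicate 3, and without shlucif replicate 1 the median was 0.0028. The alpha subunits form the outer rings and the gate. Psma4, an alpha subunit with a tail at the gate (ENSMUSG00000032301, chr9:54950790-54958030 on the plus strand), stood at 82.0, 76.1 and 78.5 CPM in shlucif, 106, 101 and 109.6 in shArf1-1, and 99.0, 94.96 and 103 in shArf1-2. All 6 Arf1-deficient libraries were above all 3 controls. The log2 fold change was 0.38 (SE 0.06; edgeR quasi-likelihood test, Benjamini-Hochberg adjustment, adjusted p = 2.38e-05). Part of a Psma4 exon, 114 bases, overlaps AY074887 on the opposite strand, and the strand setting of the authors' counting is not given in the sources used here.

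Psma1, another alpha subunit, was the alpha gene that fell. It stood at 166, 169 and 176 CPM in shlucif, 158, 153 and 169.9 in shArf1-1, and 152, 153 and 153 in shArf1-2. The controls were on the high side, but shArf1-1 replicate 3 lay within their range. The log2 fold change of −0.12 (SE 0.05) was just past the threshold (adjusted p = 0.0488, edgeR quasi-likelihood test, Benjamini-Hochberg adjustment; 5 of 6 Arf1-deficient libraries below all controls). That call was lost in 14 of 20 alternatives, including the removal of any library other than shArf1-1 replicate 3, with changes of −0.14 to −0.10 without 1 of those 8 libraries and −0.06 with library size scaling. Psma1 passed with shArf1-2 (−0.16) and not with shArf1-1 (−0.09), and the difference of −0.07 did not pass. Psma3, the remaining alpha gene that rose, changed by 0.18, and by 0.05 with no call under the GC content correction.

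The beta subunits line the inner rings, and 3 of them carry the proteolytic sites. Psmb5, which cuts after hydrophobic residues (ENSMUSG00000022193, chr14:54614119-54618022 on the minus strand), stood at 29.1, 24.9 and 25.4 CPM in shlucif, 23.2, 33.3 and 32.8 in shArf1-1, and 22.0, 24.8 and 25.5 in shArf1-2. Its groups overlapped, with a pair of shArf1-1 libraries above the rest. The pooled log2 fold change was 0.02 (95% interval −0.22 to 0.27), and it turned negative without shlucif replicate 2 (−0.02) or 3 (−0.005) and without shArf1-1 replicate 2 (−0.045) or 3 (−0.042). The difference of shArf1-2 from shArf1-1 was −0.31 with an adjusted p of 0.0636 (edgeR quasi-likelihood test, Benjamini-Hochberg adjustment; 2 of 3 shArf1-1 libraries above all shArf1-2 libraries), which missed the threshold.

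Psmb6, which cuts after acidic residues (ENSMUSG00000018286, chr11:70525367-70527858 on the plus strand), stood at 207, 193 and 210.0 CPM in shlucif, 186, 197 and 175 in shArf1-1, and 173, 167 and 182 in shArf1-2. The shArf1-2 libraries were all below the controls, and shArf1-1 replicate 2 lay inside the control range. It fell by 0.18 on the log2 scale (SE 0.06; adjusted p = 0.0102, edgeR quasi-likelihood test, Benjamini-Hochberg adjustment; 5 of 6 Arf1-deficient libraries below all controls), a call lost with library size scaling (−0.12), with limma on log2(FPKM + 1) (−0.11) and without shlucif replicate 3 (−0.15).

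Psmb7, which cuts after basic residues (ENSMUSG00000026750, chr2:38588036-38644087 on the minus strand), stood at 176, 162 and 184 CPM in shlucif, 165, 152 and 177 in shArf1-1, and 172, 168 and 164 in shArf1-2. The 3 groups overlapped throughout. Its pooled log2 fold change was −0.06 (95% interval −0.17 to 0.05), and it passed the threshold with the GC content correction alone, at −0.20. Exons of Psmb7 share 405 bases with Nek6 on the opposite strand, and those of Psmb5 share 109 bases with Mir686 on the same strand.

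Among the beta subunits without a proteolytic site, Psmb2 rose and Psmb1 fell. Psmb2 stood at 129.9, 119.8 and 112 CPM in shlucif, 141, 143 and 143 in shArf1-1, and 142, 126 and 144 in shArf1-2. All but shArf1-2 replicate 2 were above the highest control. The log2 fold change was 0.21 (SE 0.06; edgeR quasi-likelihood test, Benjamini-Hochberg adjustment, adjusted p = 0.00461), and without shlucif replicate 3 it was 0.16 and no longer past the threshold. Psmb1 fell by 0.17 on the log2 scale, a call also lost without shlucif replicate 3, with changes from −0.21 to −0.10 over the 20 alternatives.

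The 6 ATPases form the ring at the base of the 19S particle, which opens the gate, unfolds the substrate and threads it into the core. Of these, 5 rose (83.3%, beside 31.6% of all genes), with a median log2 fold change of 0.27 over the 6 that ran from 0.25 to 0.34 across the alternatives, and for each of these 5 all Arf1-deficient libraries were above all controls. Psmc6 did not pass the test, at 0.01, though with the GC content correction it was called lower, at −0.17. Psmc4 (ENSMUSG00000030603, chr7:28041707-28050101 on the minus strand) stood at 123, 117 and 120.4 CPM in shlucif, 194, 210.2 and 192 in shArf1-1, and 173, 175 and 186 in shArf1-2. The Arf1-deficient libraries were well above the controls, and those of shArf1-1 were above those of shArf1-2. The log2 difference of shArf1-2 from shArf1-1, −0.16, missed the threshold (adjusted p = 0.0505, edgeR quasi-likelihood test, Benjamini-Hochberg adjustment). The pooled log2 fold change of Psmc4 was 0.65 (SE 0.06; edgeR quasi-likelihood test, Benjamini-Hochberg adjustment, adjusted p = 3.53e-08), and its mean FPKM went from 53.9 ± 0.829 (SD, n = 3) in shlucif to 92.4 ± 4.67 and 83.9 ± 2.88 with the hairpins.

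Psmc5, the ATPase with the highest FPKM in shlucif, stood at 171, 156 and 161 CPM in shlucif, 245, 247 and 243 in shArf1-1, and 232, 235 and 235 in shArf1-2. The hairpins lay above the controls without overlap, and the log2 fold change was 0.56 (SE 0.05). Psmc2 and Psmc3 rose by 0.28 and 0.27, with Psmc2 at 0.15 under the GC content correction, and Psmc1 by 0.15, a call lost without shlucif replicate 1 or without shlucif replicate 2, with values of 0.13 to 0.21 over the 20 alternatives. Exons of Psmc3 share 215 bases with Slc39a13 on the opposite strand.

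The other 11 subunits of the 19S particle receive the ubiquitin chain, hold the base together or form the lid, which carries the deubiquitinase Psmd14. Among them 5 rose and 2 fell, beside 31.6% and 32.9% of all genes, with a median log2 fold change of 0.09 (0.15 with library size scaling), and 3 rose without shlucif replicate 1 or 2. Psmd1, the large scaffold subunit of the base (ENSMUSG00000026229, chr1:86064387-86139151 on the plus strand), stood at 201, 183 and 185 CPM in shlucif, 301, 287 and 298 in shArf1-1, and 266, 250.4 and 280.2 in shArf1-2. All 6 Arf1-deficient libraries exceeded the controls, and the shArf1-1 libraries exceeded those of shArf1-2. The pooled log2 fold change was 0.56 (SE 0.06; edgeR quasi-likelihood test, Benjamini-Hochberg adjustment, adjusted p = 1.76e-07). Psmd2, the scaffold subunit of like fold beside it, was at 115 ± 5.41 FPKM in shlucif (SD, n = 3), 122 ± 5.04 in shArf1-1 and 118 ± 4.3 in shArf1-2, and its log2 fold change had a 95% interval of −0.10 to 0.10. Psmd1 shares exon bases with Gm21972 on its own strand and with Htr2b on the opposite strand, so its counts may hold reads of either.

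Of 8 lid genes, 4 rose and 1 fell, beside 31.6% and 32.9% of all genes. Psmd6 (ENSMUSG00000021737, chr14:14112174-14120984 on the minus strand) stood at 64.0, 61.5 and 66.1 CPM in shlucif, 103, 90.6 and 110.4 in shArf1-1, and 95.4, 90.1 and 99.1 in shArf1-2. Its Arf1-deficient libraries were all above the controls, and the hairpins overlapped each other. The log2 fold change was 0.62 (SE 0.07; edgeR quasi-likelihood test, Benjamini-Hochberg adjustment, adjusted p = 3.1e-07).

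Psmd8, a lid subunit that joins late in lid assembly (ENSMUSG00000030591, chr7:29174188-29180701 on the minus strand), went the other way, at 304, 289.9 and 314 CPM in shlucif, 167, 168 and 172 in shArf1-1, and 183, 167 and 162 in shArf1-2. Control and Arf1-deficient libraries were widely separated, and the hairpins overlapped. It fell by 0.83 on the log2 scale (SE 0.05; adjusted p = 4.84e-11, edgeR quasi-likelihood test, Benjamini-Hochberg adjustment; lower in 6 of 6 libraries). Both genes encode lid subunits, yet the ratio of Psmd8 to Psmd6 FPKM was 4.35, 4.32 and 4.35 in the shlucif libraries, 1.49, 1.7 and 1.43 in shArf1-1, and 1.76, 1.7 and 1.5 in shArf1-2. These were picked as the largest rise and the largest fall of their role, so the ratio restates both changes on a scale that needs no factor between libraries.

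Psmd4, a ubiquitin receptor among the 19S genes of highest FPKM in control cells, stood at 360.5, 323 and 336 CPM in shlucif, 267, 282 and 229 in shArf1-1, and 282, 259 and 294 in shArf1-2. All Arf1-deficient libraries were below all controls. It fell by 0.34 on the log2 scale (SE 0.07; adjusted p = 0.000187, edgeR quasi-likelihood test, Benjamini-Hochberg adjustment). Of the other lid genes, Psmd12 rose by 0.30 and Psmd13 by 0.16, and Psmd7, partner of the deubiquitinase, rose by 0.14; the Psmd13 call was lost without shlucif replicate 1 or 2 (0.14 to 0.22 over the alternatives), and the Psmd7 call in 10 of 20 alternatives, among them the removal of any single control or shArf1-1 library or of shArf1-2 replicate 3 (0.13 to 0.20). With shArf1-1 they rose by 0.22 (Psmd13) and 0.19 (Psmd7), and with shArf1-2 neither passed, at 0.10 and 0.09; the differences between hairpins were not past the threshold. Exons of Psmd13 share 342 bases with Sirt3 on the opposite strand.

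**Figure D2:**
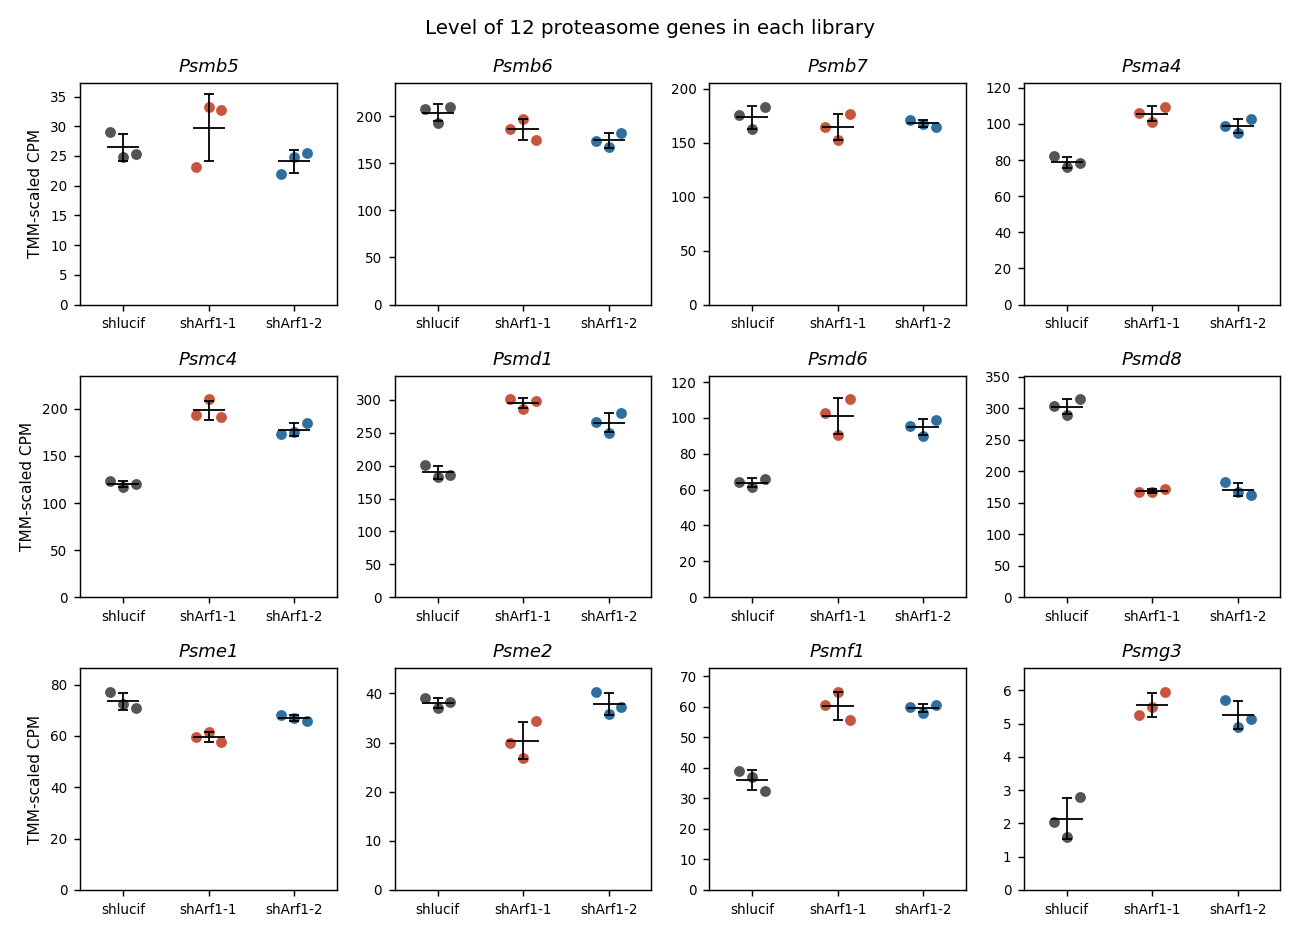
TMM-scaled CPM (y axes, each starting at 0) of named proteasome genes in each library, by group (x axis: shlucif, shArf1-1, shArf1-2). Each point is 1 library, each line a group mean and each bar 1 SD; Psmd8 drops in both hairpins, Psmc4, Psmd1, Psmd6 and Psmf1 rise in both, the 3 groups of Psmb5 and of Psmb7 overlap, and shArf1-1 alone lies below the controls for Psme2.

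Alternative caps of the core form the next group, in which 3 of 6 genes rose and 1 fell, beside 31.6% and 32.9% of all genes, with a median log2 fold change of 0.09 (0.05, 0.04 and 0.17 without shlucif replicates 1, 2 and 3, and 0.15 with library size scaling). Psmf1, which encodes a protein that inhibits the core in vitro (ENSMUSG00000032869, chr2:151715812-151744186 on the minus strand), stood at 38.9, 37.0 and 32.4 CPM in shlucif, 60.6, 64.9 and 55.6 in shArf1-1, and 59.9, 58.2 and 60.7 in shArf1-2. The hairpins overlapped each other and lay above all controls. The log2 fold change was 0.73 (SE 0.08; edgeR quasi-likelihood test, Benjamini-Hochberg adjustment, adjusted p = 1.02e-07), from a low FPKM of 5.44 ± 0.505 (SD, n = 3) in shlucif.

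Psme3, a nuclear activator that acts without ATP or ubiquitin, stood at 185, 194 and 182 CPM in shlucif, 308, 291 and 303 in shArf1-1, and 292, 274 and 285 in shArf1-2. Again no Arf1-deficient library came near the controls, and the log2 fold change was 0.64 (SE 0.05; edgeR quasi-likelihood test, Benjamini-Hochberg adjustment, adjusted p = 2.57e-09). Psme4, a large nuclear activator, rose by 0.20 and lost its call without shlucif replicate 1, with values of 0.12 to 0.26 over the 20 alternatives.

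Psme1 and Psme2 encode the alternating subunits of the interferon-inducible activator, and their genes lie near each other on chromosome 14. Psme1 (ENSMUSG00000022216, chr14:55578123-55581529 on the plus strand) stood at 77.2, 72.3 and 70.8 CPM in shlucif, 59.5, 61.4 and 57.7 in shArf1-1, and 68.2, 67.2 and 65.6 in shArf1-2. The 3 groups did not overlap, with shArf1-1 lowest. The pooled change was −0.21 (SE 0.07; edgeR quasi-likelihood test, Benjamini-Hochberg adjustment, adjusted p = 0.0103). Psme1 fell by 0.30 on the log2 scale with shArf1-1, whereas with shArf1-2 its value of −0.13 did not pass, and the difference between hairpins, 0.17, did not pass either. The pooled change was not past the threshold with library size scaling (−0.15), with limma on FPKM (−0.15), with the GC content correction (−0.13) or without shlucif replicate 1 (−0.18).

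Psme2 (ENSMUSG00000079197, chr14:55587441-55591113 on the minus strand) stood at 39.0, 37.0 and 38.2 CPM in shlucif, 29.8, 26.9 and 34.5 in shArf1-1, and 40.3, 35.9 and 37.2 in shArf1-2. Here shArf1-1 was below the controls and shArf1-2 overlapped them. With shArf1-1 it fell by 0.32 on the log2 scale (SE 0.09; adjusted p = 0.0023, edgeR quasi-likelihood test, Benjamini-Hochberg adjustment), with shArf1-2 its log2 fold change was −0.01 (95% interval −0.18 to 0.16), and the pooled value, −0.15, did not pass. Psme2b is a near copy of Psme2, and how reads shared by both were counted is not given in the sources used here, so values of both are uncertain.

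The last group comprises the chaperones that put the rings together, of which 2 of 7 rose, Psmg3 and Psmg1, a share near the 31.6% of all genes, with a median log2 fold change of 0.03 (0.06 without shArf1-1 replicate 2 and 0.10 with library size scaling). With shArf1-2 alone 3 rose and 1 fell. Psmg3, part of a chaperone pair for the alpha ring (ENSMUSG00000029551, chr5:139823592-139826885 on the minus strand), stood at 2.04, 1.6 and 2.8 CPM in shlucif, 5.25, 5.51 and 5.96 in shArf1-1, and 5.71, 4.9 and 5.16 in shArf1-2. The controls lay below all Arf1-deficient libraries, whose hairpin groups overlapped, at a low level that rests on 21 to 37 counts in each control library and 62 to 94 in each Arf1-deficient library. The log2 fold change was 1.33 (SE 0.21; edgeR quasi-likelihood test, Benjamini-Hochberg adjustment, adjusted p = 1.55e-05). With limma on log2(FPKM + 1), where the pseudocount exceeds its control level, the value was 0.76. Of its exons, 280 bases are shared with Gm26938 on the same strand. Psmg1, of another alpha ring chaperone pair, rose by 0.27, with the call lost without shlucif replicate 3 and values of 0.24 to 0.33 over the 20 alternatives.

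Between the hairpins, 2 of 44 proteasome genes differed past the threshold (4.55%), beside 14.4% of all genes tested. Psmd1 was lower in shArf1-2 than in shArf1-1 by a log2 difference of −0.15 (SE 0.05; edgeR quasi-likelihood test, Benjamini-Hochberg adjustment, adjusted p = 0.0462; all 3 libraries of one below all 3 of the other), with rises of 0.64 and 0.48 against the controls for shArf1-1 and shArf1-2. Psme2 was higher in shArf1-2 by 0.31 (SE 0.09; edgeR quasi-likelihood test, Benjamini-Hochberg adjustment, adjusted p = 0.0169; 3 of 3 libraries higher). The count was 8 with the GC content correction, beside 2324 of the 12448 genes tested at that setting. It ran from 0 to 3 when 1 library was left out: 0 by the edgeR test without shArf1-2 replicate 1 (3 at an unadjusted p under 0.05; DESeq2 and limma called 2 each with all libraries), and 1 without shlucif replicate 2 or 3, shArf1-1 replicate 1 or 2, or shArf1-2 replicate 2. The Psme2 difference was 0.29, 0.23 and 0.26, not past the threshold, without shArf1-1 replicate 1, shArf1-1 replicate 2 and shArf1-2 replicate 1. That of Psmd1 ran from −0.16 to −0.11 and was lost without any of 6 libraries (shlucif 2 and 3, shArf1-1 1 and 3, shArf1-2 1 and 2). The Psmd1 call was also lost in some alternatives that kept every library.

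The 3 inducible catalytic subunits, which replace Psmb5, Psmb6 and Psmb7 in the immunoproteasome, were set beside the constitutive ones. Psmb9, the counterpart of Psmb6, stood at 20.6, 16.7 and 17.5 CPM in shlucif, 8.91, 8.44 and 8.49 in shArf1-1, and 11.2, 12.6 and 12.6 in shArf1-2. The groups did not overlap, and shArf1-1 was lowest. It fell by 0.81 on the log2 scale (SE 0.14; adjusted p = 5.03e-05, edgeR quasi-likelihood test, Benjamini-Hochberg adjustment), and the log2 difference between hairpins was 0.49. Psmb8 and Psmb10 did not pass in the pooled comparison, at −0.09 and 0.21, and Psmb10 rose by 0.25 with shArf1-2. On the FPKM scale Psmb9 reached 4.84 ± 0.502 (SD, n = 3) in shlucif, against 105 ± 3.8 for Psmb6. Of 15 interferon-responsive genes, 12 were tested and all 12 fell, beside 32.9% of all genes, with a median of −1.49 and with Irf7 (−4.52) and Isg15 (−2.56) the furthest. Psme1, Psme2 and Psmb9 are also expressed by macrophages, whose markers summed to 370, 329 and 305 CPM in shlucif and to between 1.03 and 1.88 in each Arf1-deficient library; their part in these falls was not tested.

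Genes that act with the proteasome were grouped by function. Of the pair of 19S subunits with other names, Adrm1, a ubiquitin receptor, rose by 0.51, and Sem1 did not pass in the pooled comparison, at −0.07, but fell by 0.16 with shArf1-2. The difference between hairpins passed for neither gene. Among 15 proteasome-bound and assembly factors, 11 rose and 1 fell, with a median of 0.25, beside 31.6% and 32.9% of all genes. The furthest were Ube3c, a ubiquitin ligase of the proteasome (0.74), and Zfand5, a proteasome-binding protein (0.51), and the gene that fell was Fbxo7 (−0.26), a ubiquitin ligase subunit that binds the inhibitor Psmf1. The maturation factor Pomp, needed to build the core, rose by 0.28, and Usp14, the deubiquitinase of the base, by 0.25.

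Nfe2l1 encodes the transcription factor that raises proteasome genes when the proteasome is inhibited, and it stood at 393, 350.3 and 368 CPM in shlucif, 268, 269.7 and 254 in shArf1-1, and 304, 294 and 302 in shArf1-2. The 3 groups were separate and shArf1-1 was lowest. It fell by 0.39 on the log2 scale (SE 0.06; adjusted p = 1.25e-05, edgeR quasi-likelihood test, Benjamini-Hochberg adjustment). Of the 8 genes in the list of proteasome gene regulators, 4 rose and 3 fell, beside 31.6% and 32.9% of all genes, with Keap1 (0.74) and Syvn1 (0.49) the furthest up and Nfe2l2 (−0.79) and Sel1l (−0.62) the furthest down. Of 6 genes for ubiquitin and its activating enzymes, 3 fell, beside 32.9% of all genes, among them Rps27a (−0.23), and the other 3 did not pass. Log2 fold changes in this list ran from −0.43 to 0.50, and the highest was among those that did not pass.

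The promoters of the proteasome genes were searched for 4 motifs on both strands, in windows of 300 bases (250 before and 50 after the start) from RefSeq on build GRCm38.p6. Windows were found for 38 of the 46 genes, 41 windows in all, and were compared with the 32851 windows of all genes. The letters CCGGAAG, the core of sites for ETS factors, were in 15 of the 41 windows (36.6%) and in 8.86% of all windows. They occurred in 10 of 16 windows of genes that rose, 1 of 5 windows of genes that fell and 4 of 20 windows of the others. The others include Psmb11, which was not tested. For no motif was the share taken over all genes that rose or fell, so these splits have no background of their own. Windows are also not separate genes, as those of Psme2 overlap. The GC box letters GGGCGG were in 23 of 41 (56.1%), against 35.7% of all windows. They were in 7 of 16 windows of genes that rose, 4 of 5 of genes that fell and 12 of 20 of the others. CCAAT was in 13 (31.7%), against 37.4%, and in 4 of 16, 2 of 5 and 7 of 20 of these. TGACNNNGC, the core letters of the element bound by Nfe2l1, was in 6 (14.6%), against 12.4%, and in 2 of 16, 1 of 5 and 3 of 20. No motif contains another, though neighbouring matches can share bases. A match is a description of the letters and says nothing of binding.

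The windows of 4 genes of the 19S particle are printed because they had the largest rise among its ATPases, the difference between hairpins, and the largest rise and fall among its other subunits: Psmc4 (chr7:28050043-28050342, minus strand), Psmd1 (chr1:86064369-86064668, plus strand), Psmd6 (chr14:14120896-14121195, minus strand) and Psmd8 (chr7:29180624-29180923, minus strand). Each runs 5′ to 3′ on the strand of its gene, and capitals mark GGGCGG or its reverse complement, and CCGGAAG in Psmd6.
Psmc4: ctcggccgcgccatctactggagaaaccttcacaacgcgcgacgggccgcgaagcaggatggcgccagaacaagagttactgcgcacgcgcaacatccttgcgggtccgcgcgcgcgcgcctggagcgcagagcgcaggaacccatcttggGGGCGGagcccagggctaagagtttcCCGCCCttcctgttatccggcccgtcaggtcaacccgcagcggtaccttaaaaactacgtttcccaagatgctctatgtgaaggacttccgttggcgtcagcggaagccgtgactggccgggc
Psmd1: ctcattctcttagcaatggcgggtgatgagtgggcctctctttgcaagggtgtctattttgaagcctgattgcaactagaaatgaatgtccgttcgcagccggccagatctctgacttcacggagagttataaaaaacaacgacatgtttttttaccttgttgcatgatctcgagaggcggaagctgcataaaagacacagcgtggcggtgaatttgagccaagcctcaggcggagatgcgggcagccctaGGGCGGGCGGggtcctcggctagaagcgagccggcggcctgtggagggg
Psmd6: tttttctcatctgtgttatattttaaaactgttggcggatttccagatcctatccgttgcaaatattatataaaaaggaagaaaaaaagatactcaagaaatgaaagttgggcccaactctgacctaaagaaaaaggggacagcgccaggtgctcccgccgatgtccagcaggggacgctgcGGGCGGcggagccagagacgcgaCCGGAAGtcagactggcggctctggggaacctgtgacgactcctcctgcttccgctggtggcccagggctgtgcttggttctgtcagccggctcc
Psmd8: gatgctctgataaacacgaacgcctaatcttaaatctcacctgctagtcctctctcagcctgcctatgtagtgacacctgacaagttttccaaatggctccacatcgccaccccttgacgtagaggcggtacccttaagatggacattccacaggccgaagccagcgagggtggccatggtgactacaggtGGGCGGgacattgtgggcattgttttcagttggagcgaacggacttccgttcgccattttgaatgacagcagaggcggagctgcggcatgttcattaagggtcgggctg
Psmc4 and Psmd1 each hold 2 GC boxes and Psmd6 and Psmd8 hold 1 each, so these letters were found both in windows of genes that rose and in that of the gene that fell.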

How the data were processed

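RNA from 9 N2a libraries was enriched for poly(A) and randomly primed, per the labels; the aligner, the counter, their versions and the strand setting are not given in the sources used here, and the submitters' processing notes name build mm10. The authors deposited raw read counts per gene, and FPKM values that the authors computed per kilobase of listed length, scaled to the library's total count (recomputed here within 0.01% for 100% of values). The table holds 21899 genes; 8 lines with wrapped annotation and no values were left out. Because 565 of 21846 genes have their GENCODE vM21 start in the table, printed gene coordinates come from GENCODE vM21 (GRCm38) by gene ID, not from the table. Columns labelled shArf2 were taken as hairpin shArf1-2.

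Counts were tested with edgeR 4.0.16 in R 4.3.3 (filterByExpr on the 3 groups, TMM, robust quasi-likelihood fit), in a fit of 2 groups for Arf1-deficient against shlucif and of 3 groups for each hairpin, with Benjamini-Hochberg adjustment over 12448 genes and a threshold of 0.05. Values per library are TMM-scaled CPM. The steps were tested on simulated data. Alternatives were DESeq2 1.42.0, library size and upper quartile scaling, no filter, at least 10 counts in every library, limma 3.58.1 on log2(FPKM + 1) and on log2(FPKM + 0.1), a replicate block, corrections for gene length and GC content, the average of the hairpin contrasts, leaving out each library, and a log2 change of at least 0.5. Promoter windows and figures were made in Python 3.11.15.

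Values in every library are given for the catalytic core genes, the largest rise and fall of each role, Psme1, Psme2 and genes that differ between hairpins; of other lists, the 2 largest changes each way, except that some genes are not reported here. Psmc5, Psmd4, Psme3, Psmb9 and Nfe2l1 and the printed promoters were chosen after their values were seen, and so were Pomp and Usp14. Lists were immunoproteasome, subunits with other names, proteasome-bound and assembly factors, regulators, ubiquitin, other complexes, interferon-responsive genes and cell type markers (neuronal, macrophage, fibroblast, lymphocyte, glial). The members and lists were chosen with earlier results of these data known.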

Additional observations from a re-analysis of the deposited data

Results flagged for a closer look

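Psmd1, the scaffold subunit of the 19S base, differed between the hairpins: its log2 change in shArf1-2 minus that in shArf1-1 was −0.15 by a test of the difference itself (edgeR quasi-likelihood test, Benjamini-Hochberg adjustment, adjusted p = 0.0462), although it rose with both. This call was lost without any 1 of 6 libraries, and also in some alternatives that kept every library. Psme2, a subunit of the interferon-inducible activator, differed likewise by 0.31 (edgeR quasi-likelihood test, Benjamini-Hochberg adjustment, adjusted p = 0.0169), with a fall in shArf1-1 and values that overlap the controls in shArf1-2; this call was lost without any 1 of 3 libraries. For scale, Arf1 itself was higher in shArf1-2 than in shArf1-1 by a log2 difference of 0.34. Whether the remaining Arf1 bears on either gene was not tested.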

How the results depend on the processing

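Of the changes of named proteasome genes, each taken under each alternative, 279 kept their side of the threshold, 38 fell short of it and 1 newly passed it. None of the genes past the threshold changed sign. Several of those not past it did, among them Psmd2 in 10 of 20 alternatives, Psme2b in 8, Psmb5 and Psmc6 in 4 each and Psmb7 in 1. Of other core genes not past it, Psmb4 kept its sign in 14 of 20 alternatives, Psma7 in 15, Psma5 in 17 and Psma2 in 19. Rises numbered 18 with all 6 Arf1-deficient libraries and 7 when a log2 change of at least 0.5 was also asked for. Falls numbered 6, and 2 with library size scaling, 2 with limma on log2(FPKM + 1), 2 with limma on log2(FPKM + 0.1) and 1 with a log2 change of at least 0.5. With the GC content correction, falls went from 6 to 10 for shArf1-1 and from 6 to 10 for shArf1-2, and genes that differ between hairpins from 2 to 8; library size scaling gave 3 falls for shArf1-2. Over all genes tested that correction took falls from 4282 to 4462 for shArf1-1 and from 4054 to 4288 for shArf1-2. Genes that differ between hairpins went from 1798 to 2324. The cause of these shifts was not tested. Leaving out each library gave 14 to 19 rises and 3 to 6 falls pooled, 17 to 18 and 5 to 7 for shArf1-1, 15 to 18 and 4 to 7 for shArf1-2, and 0 to 3 genes between hairpins, where the 0 by edgeR stands beside 3 at an unadjusted p under 0.05.

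With the replicate number as a replicate block there were 17 rises and 5 falls pooled, 18 and 6 for shArf1-1, 18 and 7 for shArf1-2, and 2 between hairpins. Libraries of the same number did not deviate together: over 9 pairs the correlation of deviations ran from −0.082 to 0.094, with a mean of 0.007, so the number is not taken as a pairing. With 3 libraries a group, small changes such as that of Psma1 lie at the edge of what the test can call, and Psmg3 rests on few counts.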

Other observations

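Of other complexes, eIF3 and the CCT chaperonin had genes that rose and genes that fell against the same controls. Over all genes tested, 31.6% rose and 32.9% fell. The translation initiation factor eIF3, whose subunits share folds with the proteasome lid, had 8 of 13 genes lower and 3 higher, with a median log2 change of −0.31; Eif3f (−0.71) and Eif3e (−0.58) fell furthest, and Eif3b (0.47) and Eif3j1 (0.23) rose furthest. In the COP9 signalosome, the nuclear complex built like the lid, 3 of 9 genes rose, led by Cops8 (0.42) and Cops3 (0.20), with a median of 0.11, a share of 33.3% that is near that of all genes, and the other 6 passed in neither direction. In the CCT chaperonin, which folds actin and tubulin, 4 of 8 fell and 2 rose, with Cct4 (−0.52) and Cct5 (−0.40) lowest and Cct6a (0.43) and Cct3 (0.15) highest. By comparison the 19S particle had a median of 0.15 and the 20S core of −0.03. With library size scaling these were 0.21 and 0.04, and the median over all genes tested went from 0.0033 to 0.0661.

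Other cell type markers summed to fewer counts than the neuronal list in each library. Of 7 fibroblast markers 3 were tested and Col1a1 fell (−1.71), with 104 to 224 counts summed over the list in each library. Of 5 astrocyte and oligodendrocyte markers 2 were tested and Mbp fell (−0.32), with 363 to 546 counts summed over the list in each library. The 5 lymphocyte markers were too low to be tested. The name matches Psmc3ip and Psme3ip1 had pooled log2 changes of 0.07 and 0.14, neither past the threshold.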
